A study of Mus musculus with 3 samples.

Results

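Imprinted genes are genes of which mainly the copy inherited from 1 parent is transcribed. The 35 imprinted genes described here, of 48617 loci in the deposited annotation, were chosen by name, and each name matched exactly 1 locus on the expected strand. By common knowledge, 12 of them are expressed from the maternal copy, 22 from the paternal copy, and the Gnas locus holds transcripts of both kinds. The data are RNA-seq values from total RNA of the heart ventricle of C57BL/6 mice, from embryos of the embryonic stages E10.5 and E13.5 and from adults of 8 weeks, with 1 library per stage. Where 3 values follow each other below, they stand for E10.5, E13.5 and adult in this order. No gene was altered and no agent was given in any group, and neither the number of animals behind a library nor their sex is used here. The strain is inbred, so the parental copies carry the same sequence and the parental origin of the RNA was not measured. With 1 library per stage there is no replicate check of any difference between stages, and no p-value is given.

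Most imprinted genes lie in clusters, in which a control region with a methylation mark set in the egg or the sperm decides which genes are read from which parental chromosome. In several clusters a long non-coding RNA (lncRNA) is read from 1 chromosome and protein-coding genes from the other. Many of the paternally expressed genes promote and several of the maternally expressed genes restrain fetal growth, and many members are known for high expression in the fetus and the placenta and low expression after birth.

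Expression was given as fpkm, the number of fragments scaled to transcript length and to the size of the library, so that levels of different genes can be set side by side. Expression was counted from 1 fpkm upward in any of the libraries. By that limit 29 of the 35 members were expressed, 28 of them in the E10.5 library, 29 in the E13.5 library and 20 in the adult library. The 6 others were Slc22a18, Ascl2, Rtl1, Dio3, Magel2 and Nap1l5, with values between 0 and 0.819 fpkm. Differences between stages are given on the scale of log2(fpkm + 1), on which the change of low genes comes out too small, and a difference of 2 or more on that scale was taken as the limit. As a rough guide to precision, a transcript of 1 kb at 1 fpkm rested on about 13.8, 26.7 and 13.8 fragments in the 3 libraries, read from the spacing of the lowest values.

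The promoters of 5 members are shown because they stand for the patterns described below. Mest, Plagl1 and Nnat had some of the largest differences between the embryo and the adult, Peg3 shares its promoter with Usp29, and Snrpn was among the few members that were not lower in the adult. Each sequence is 300 bases, 250 before and 50 after a start site, taken from RefSeq on GRCm38.p6 and printed in the direction of the gene. Where RefSeq has several starts for a gene, the window with the most CG dinucleotides within 200 bp of a deposited start was taken. Capitals mark the hexamer TGCCGC on either strand, the sequence that the zinc finger protein ZFP57 binds when it is methylated at imprinted regions. The windows are chr6:30737800-30738099 on the plus strand for Mest, chr10:13090582-13090881 on the plus strand for Plagl1, chr2:157559828-157560127 on the plus strand for Nnat, chr7:6730370-6730669 on the minus strand for Peg3 and chr7:60005150-60005449 on the minus strand for Snrpn.
Mest: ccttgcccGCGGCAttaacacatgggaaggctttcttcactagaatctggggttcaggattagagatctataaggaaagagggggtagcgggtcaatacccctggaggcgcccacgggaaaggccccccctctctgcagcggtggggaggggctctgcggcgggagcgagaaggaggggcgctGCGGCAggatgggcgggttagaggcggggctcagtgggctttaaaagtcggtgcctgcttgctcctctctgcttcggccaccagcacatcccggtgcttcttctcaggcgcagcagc
Plagl1: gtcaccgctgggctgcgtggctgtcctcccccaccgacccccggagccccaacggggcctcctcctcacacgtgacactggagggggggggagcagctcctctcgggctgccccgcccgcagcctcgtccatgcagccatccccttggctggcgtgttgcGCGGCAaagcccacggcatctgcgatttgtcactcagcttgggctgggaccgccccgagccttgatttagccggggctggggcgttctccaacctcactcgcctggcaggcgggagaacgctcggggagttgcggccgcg
Nnat: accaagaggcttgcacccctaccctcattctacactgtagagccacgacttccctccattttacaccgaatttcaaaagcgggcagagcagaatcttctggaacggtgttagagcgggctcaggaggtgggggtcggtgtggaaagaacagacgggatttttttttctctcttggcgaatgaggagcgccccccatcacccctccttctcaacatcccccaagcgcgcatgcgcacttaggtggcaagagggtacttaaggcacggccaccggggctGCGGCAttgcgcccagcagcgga
Peg3: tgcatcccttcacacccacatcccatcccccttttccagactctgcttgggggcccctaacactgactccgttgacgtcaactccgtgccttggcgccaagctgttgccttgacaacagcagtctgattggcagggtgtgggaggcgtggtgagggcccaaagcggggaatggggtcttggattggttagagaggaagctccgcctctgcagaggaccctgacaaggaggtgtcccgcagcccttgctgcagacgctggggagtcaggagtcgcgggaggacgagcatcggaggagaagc
Snrpn: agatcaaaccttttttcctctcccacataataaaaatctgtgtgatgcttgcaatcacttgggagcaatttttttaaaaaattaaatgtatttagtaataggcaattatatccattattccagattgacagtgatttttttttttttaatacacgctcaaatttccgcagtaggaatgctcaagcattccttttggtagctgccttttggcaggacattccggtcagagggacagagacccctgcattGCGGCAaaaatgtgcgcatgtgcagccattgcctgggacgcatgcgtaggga

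The Mest window holds 2 copies of the hexamer and those of Plagl1, Nnat and Snrpn 1 each, while these letters are not in the Peg3 window. Over the 44 RefSeq windows found for 28 members, 10 held the hexamer (22.7%), against 11.6% of all 32851 RefSeq promoter windows. CG dinucleotides numbered 17, 26, 17, 13 and 7 in the windows of Mest, Plagl1, Nnat, Peg3 and Snrpn. The median was 11.5 over the 44 windows of members and 7 over all windows. The hexamer itself holds a CG, and some members have several windows. The shares of windows with the hexamer are thus not matched for CG content, and their difference was not tested. A match is only a match of letters, and binding and methylation were not measured. H19, Cdkn1c, Rtl1, Peg10, Sgce, Peg13 and Impact were without an entry in the table used.

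As a group, the imprinted genes were strongly expressed in the embryonic ventricle and much lower in the adult one. Their values summed to 9538, 11228 and 504 fpkm. This was 2.68%, 2.47% and 0.148% of the sum over all loci of RefSeq mRNAs and lncRNAs. H19 alone held 1.05%, 1.64% and 0.00132%, and the other 34 members held 1.63%, 0.828% and 0.147%. The 12 maternally expressed members held 1.6%, 1.95% and 0.0326%, and the 22 paternally expressed members 0.924%, 0.39% and 0.0282%. Of the 35 members, 33 had their lowest value in the adult, as did 57.7% of the 12881 annotated loci that reached 1 fpkm, and the highest value was the E10.5 one for 16 members, the E13.5 one for 17 and the adult one for 2. The plot of all members by library shows these levels.

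**Figure D1:**
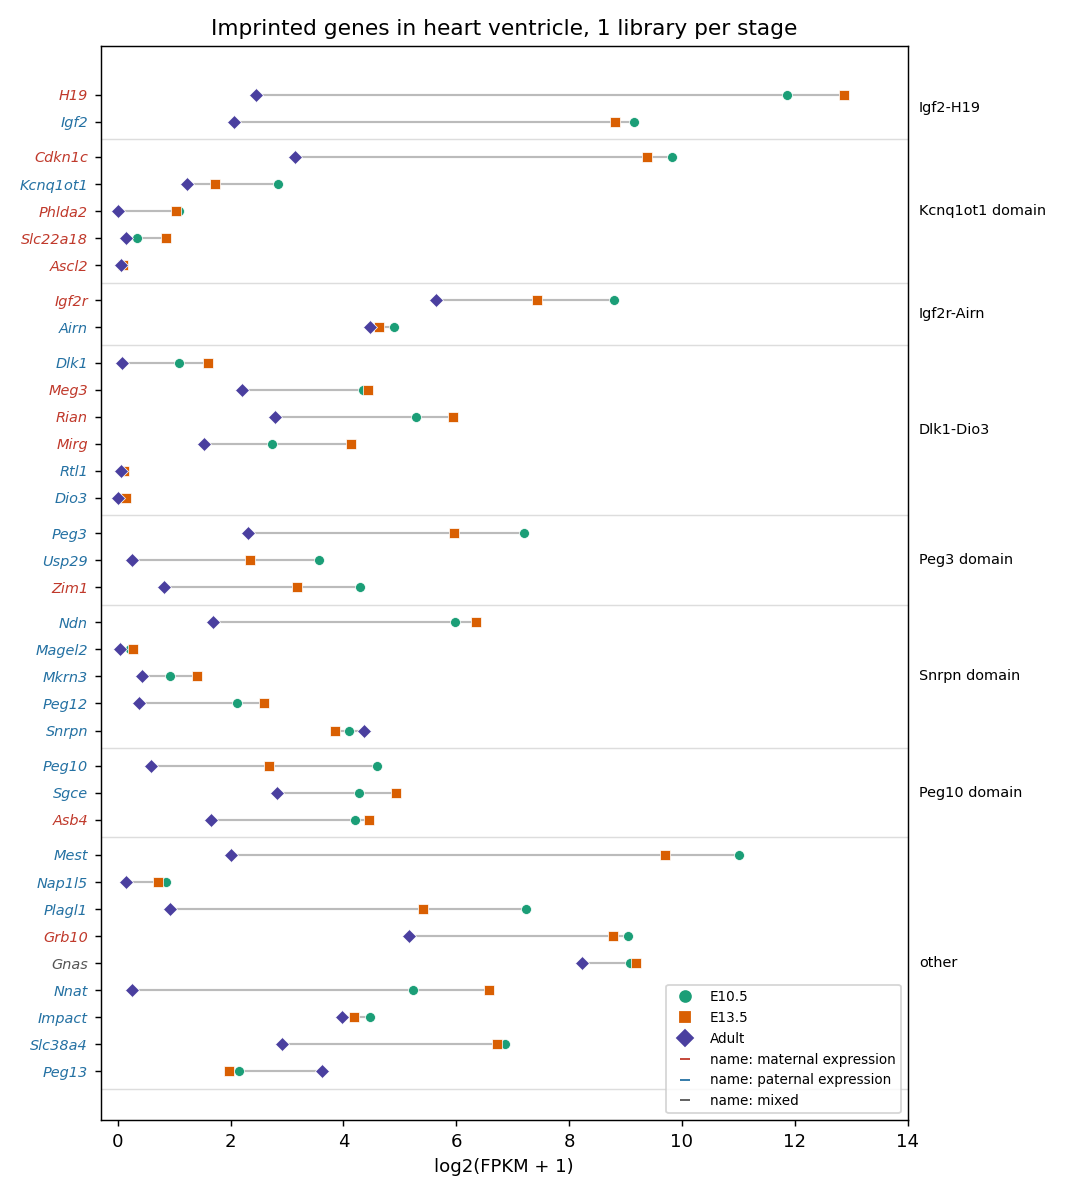
Level of each of the 35 imprinted genes as log2(FPKM + 1) on the horizontal axis, grouped by cluster, with 1 point per library (circle E10.5, square E13.5, diamond adult) and gene names coloured by the parental copy known to be expressed. The adult diamond is the leftmost point for 33 of 35 genes, and Snrpn and Peg13 are the 2 exceptions.

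From E10.5 to the adult, 17 of the 35 members were lower past the limit and 0 were higher past it. Over the 12881 annotated loci expressed at 1 fpkm or more, 8.02% were lower and 5.6% higher past the same limit. The median difference was -1.74 over all 35 members and -2.54 over the 29 expressed ones, against -0.39 over the annotated loci. High genes have more room to go down on this scale. Among the 24 members that reached 10 fpkm in a library, 17 were lower past the limit, against 11.2% of 7662 annotated loci that reached 10 fpkm, of which 6.43% were higher. From E13.5 to the adult, 19 of 35 members were lower and 0 higher past the limit, against 9.84% and 4.4% of annotated loci, with a member median of -2.08 and a median of -0.50 over the annotated loci. Of the 24 members that reached 10 fpkm, 18 were lower past it, against 13.9% lower and 5.27% higher of the annotated loci at that level. These comparisons share the adult library, so they are not separate evidence.

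The members were also compared under other scalings. Median-of-ratios scaling centres the changes of expressed mRNA loci by its definition, so a centred background under it shows no error of the deposited scaling. For E10.5 to the adult it brings the median over annotated loci from -0.39 to -0.02, and for E13.5 to the adult from -0.50 to -0.01. It also turns the balance of annotated loci between E10.5 and the adult to 5.84% lower and 8.17% higher, and that between E13.5 and the adult to 6.03% and 7.27%. With this scaling, 16 members in place of 17 were lower past the limit from E10.5 to the adult, without Meg3. From E13.5 to the adult 13 in place of 19 were lower past it, without Meg3, Peg10, Peg12, Sgce, Usp29 and Zim1. An adult value below the E10.5 value was then found for 30 of the 35 members and 50.6% of annotated loci, and one below the E13.5 value for 30 members and 50.3% of annotated loci. With sums made equal without mitochondrial, globin and short RNA loci, the medians over annotated loci were -0.31 from E10.5 and -0.19 from E13.5. From E10.5 to the adult, 7.63% of annotated loci were then lower and 6.21% higher, with 17 members lower. From E13.5 to the adult these values were 7.03%, 5.81% and 15. Which scaling is nearer to the true levels was not tested. In bulk tissue, fewer cells of a type and less RNA per cell cannot be told apart.

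By the parental copy, 8 of the 12 maternally expressed and 9 of the 22 paternally expressed members were lower past the limit from E10.5 to the adult, with medians of -2.52 and -1.54. From E13.5 to the adult the numbers were 8 of 12 and 11 of 22, with medians of -2.49 and -1.80. Over expressed members alone, 10 maternal and 18 paternal, the medians from E10.5 to the adult were closer, -2.84 and -2.53. Which of them was lower depended on the settings, with -3.40 and -3.62 for a pseudocount of 0.1 and -3.15 and -3.31 for a limit of 2 fpkm. Thus members of both kinds were lower in the adult, and the difference between the kinds was not tested. By type of gene, 14 of 28 protein-coding and 3 of 7 non-coding members were lower past the limit from E10.5 to the adult.

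**Figure D2:**
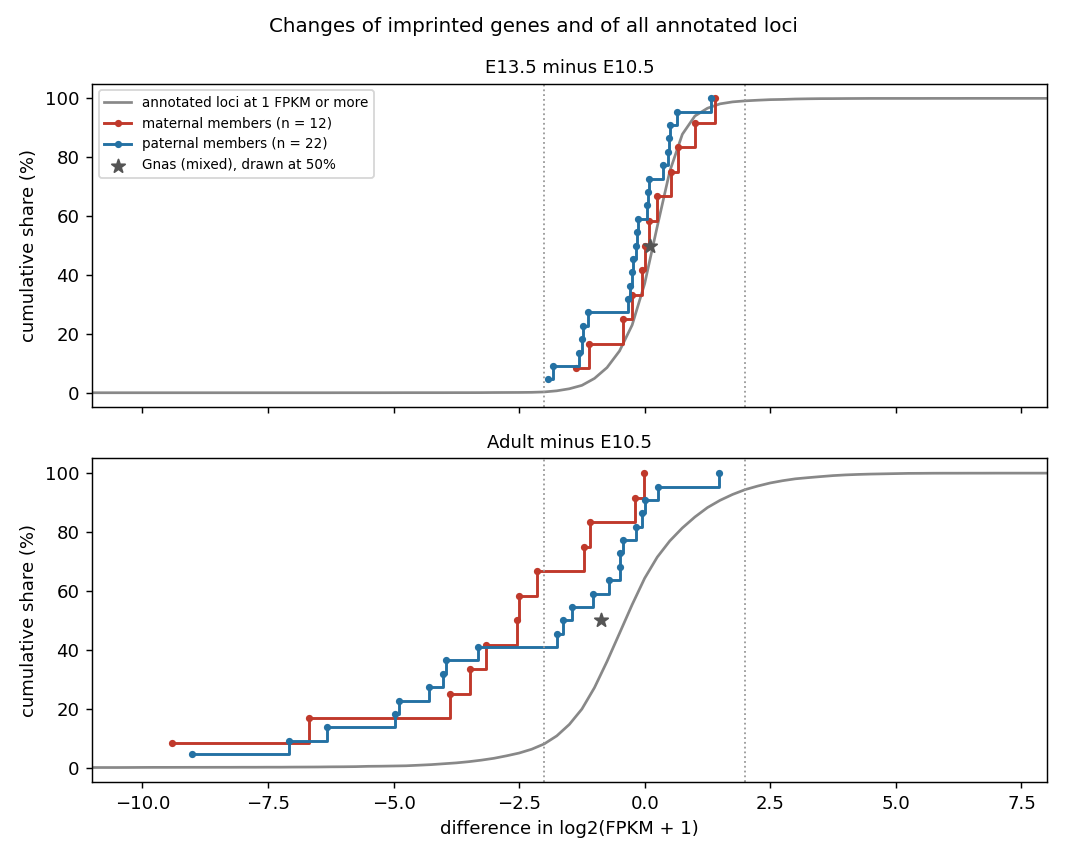
Cumulative share of loci (vertical axis, %) against the difference in log2(FPKM + 1) (horizontal axis) for 12881 annotated loci (grey), 12 maternally expressed members (red) and 22 paternally expressed members (blue), with dotted lines at -2 and 2. From E10.5 to E13.5 all members lie between the dotted lines, and from E10.5 to the adult 8 maternal and 9 paternal members lie to the left of -2.

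Between the embryonic stages, 0 of the 35 members passed the limit in either direction, against 0.272% of annotated loci lower and 0.846% higher at E13.5 (0.418% and 1.16% of those that reached 10 fpkm). There were 17 members higher and 18 lower at E13.5, with a median of -0.06. Over the 29 expressed members, 12 were higher and 17 lower, with a median of -0.17. The annotated loci, which all reached 1 fpkm, had a median of 0.17. Over the annotated loci, 62.9% were higher at E13.5 and 37% lower. In the Dlk1-Dio3 cluster 6 of 6 members were higher, by 0.05 to 1.40, although Meg3 was lower under both other scalings and 2 of the 6, Rtl1 and Dio3, were under the limit of expression and rest on few fragments. All 3 members of the Peg3 domain were lower, by values from -1.11 to -1.25. Both members of the Igf2r-Airn cluster were lower. In the Snrpn domain 4 of 5 were higher, Magel2 below the limit of expression among them, and 3 of the 4 expressed ones. Beside the 62.9% of annotated loci, so few members give no result about the domain.

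The Igf2-H19 cluster lies on the minus strand of chromosome 7 and held the highest member. Igf2, the paternally expressed fetal growth factor (chr7:142650768-142661035), was at 566, 451 and 3.19 fpkm. H19, a maternally expressed lncRNA that shares enhancers with Igf2 (chr7:142575520-142578146), was at 3741, 7460 and 4.47 fpkm. Both genes were thus high in both embryonic libraries and low in the adult. Among annotated loci, H19 had rank 4 and rank 3 in the embryo and rank 7933 in the adult. The E10.5 level was 836 times the adult level for H19 and 178 times for Igf2, with differences of -9.42 and -7.08. Between the embryonic stages they moved apart, with a difference of 1.00 for H19 and -0.33 for Igf2. Within a library, the ratio of H19 to Igf2 was therefore 6.61, 16.5 and 1.4. Igf2as, transcribed from the other strand over 1343 bp of the Igf2 locus, was at 11.7, 10.52 and 0.0353 fpkm, low in the adult as Igf2 was. Whether the counting used the strand is not stated, so reads of genes that overlap on opposite strands may not have been told apart, here and for the pairs below.

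Igf2r and Airn overlap on chromosome 17. Igf2r, the maternally expressed receptor that removes IGF2 from the cell surface (chr17:12682344-12769706), was at 444, 173 and 49.1 fpkm. Airn, the paternally expressed lncRNA that silences the paternal Igf2r copy, starts inside Igf2r 28395 bp from its start and runs the other way. It was at 28.7, 23.8 and 21.1 fpkm, and its locus is joined with Mrgprh in the annotation. The level of Igf2r at E10.5 was 9.03 times that in the adult, with a difference of -3.15, while the difference of Airn was -0.43. Airn was thus 1 of the members nearest to a constant level, and its difference from E13.5 to the adult, -0.17, was 0.40 with median-of-ratios scaling. The ratio of Airn to Igf2r was 0.0647, 0.138 and 0.429 in the 3 libraries. The ratio of Igf2 to Igf2r, the ligand over its clearance receptor, was 1.28, 2.61 and 0.0648. It was above 1 in both embryonic libraries and below 1 in the adult.

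The Kcnq1ot1 domain lies next to Igf2-H19 on chromosome 7. Cdkn1c, the maternally expressed inhibitor of cyclin-dependent kinases known as p57 (chr7:143458339-143461050), was at 899, 669 and 7.81 fpkm. Its E10.5 level was 115 times the adult level, with a difference of -6.68. Kcnq1ot1, the paternally expressed lncRNA that silences the domain, was at 6.2, 2.32 and 1.33 fpkm, a difference of -1.63 that did not pass the limit. Its host gene on the other strand, Kcnq1, a potassium channel of the heart, went the other way, from 3.14 and 4.52 fpkm in the embryo to 14.1 in the adult. The ratio of Kcnq1 to Kcnq1ot1 was 0.506, 1.95 and 10.54, and that of Cdkn1c to Kcnq1ot1 was 145, 289 and 5.85. Phlda2, a maternally expressed gene that limits growth of the placenta, was near the limit of expression at 1.13 and 1.04 fpkm in the embryo and is listed at 0 in the adult. An exact 0 can be a failed estimate in this table, since Ttn, a main gene of heart muscle, is also listed at 0 in the adult, so no fold is given. The transporter gene Slc22a18 and the placental transcription factor gene Ascl2, both maternally expressed, stayed under 1 fpkm in all libraries.

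**Figure D3:**
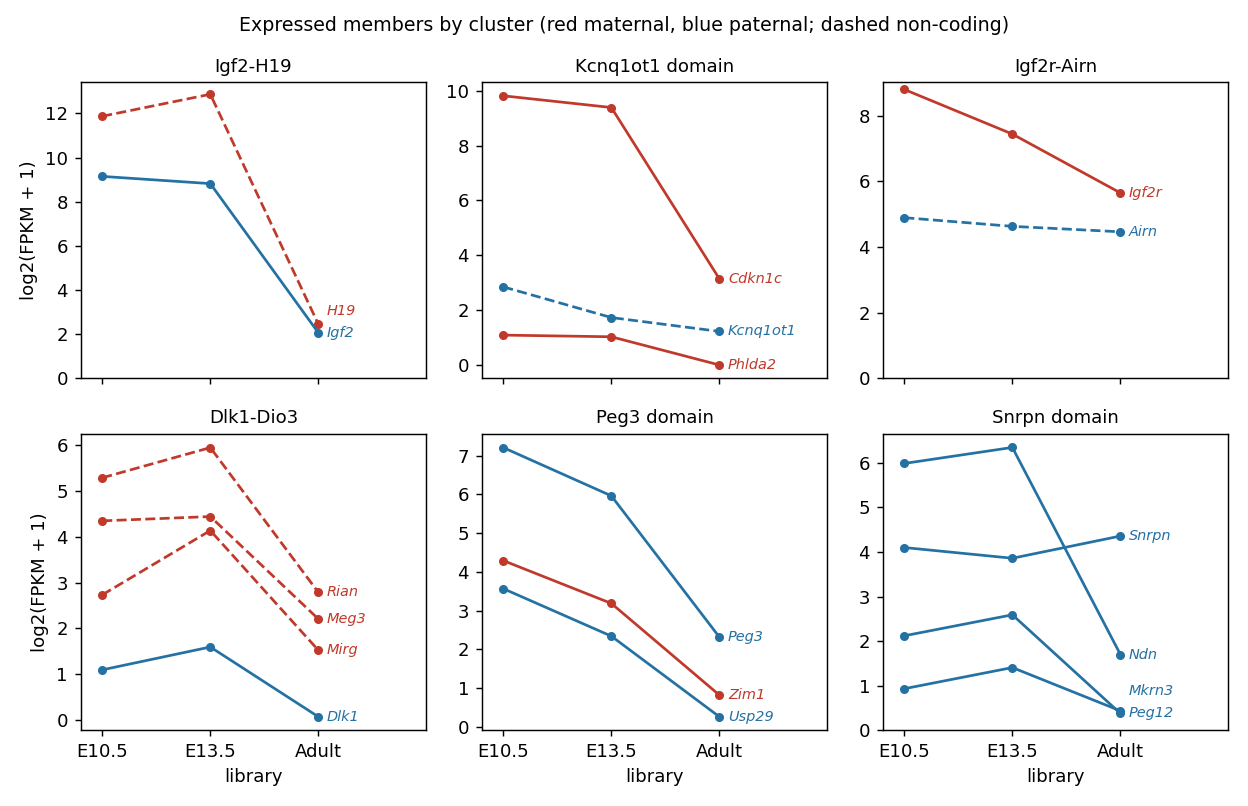
Level of the expressed members of 6 imprinted clusters as log2(FPKM + 1) (vertical axis, a different range in each panel) in the E10.5, E13.5 and adult libraries (horizontal axis), red for maternal and blue for paternal expression and dashed for non-coding genes. Lines of the Peg3 domain run nearly parallel from E10.5 to E13.5, and toward the adult that of Peg3 falls more than the others. Those of the Dlk1-Dio3 cluster peak at E13.5, and in the Igf2r-Airn and Snrpn panels Airn and Snrpn stay level.

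The Dlk1-Dio3 cluster on chromosome 12 is known for its large set of maternally expressed non-coding RNAs. Meg3, a maternally expressed lncRNA (chr12:109540996-109572475), was at 19.4, 20.7 and 3.61 fpkm. Rian, a host of small nucleolar RNAs (chr12:109591537-109693405), was at 38.1, 60.7 and 5.9 fpkm. Mirg, a host of microRNAs (chr12:109729664-109749457), was at 5.65, 16.6 and 1.87 fpkm. These 3 lncRNAs were highest at E13.5 and lowest in the adult, with differences from E13.5 to the adult of -2.24, -3.16 and -2.62. The difference of Mirg from E10.5 to E13.5, 1.40, was the highest of any member. The loci of all 3 are joined with microRNA precursors, 3 for Meg3, 2 for Rian and 12 for Mirg, and how the short precursors weigh in the fpkm of a joined locus was not tested. The paternally expressed genes of the cluster were low. Dlk1, a membrane protein related to Notch ligands, was at 1.13, 2.02 and 0.0492 fpkm, the last of these resting on about 3 fragments. Rtl1, a gene derived from a retrotransposon, and Dio3, which inactivates thyroid hormone, had at most 0.0786 and 0.111 fpkm. The ratio of Rian to Meg3 was 1.97, 2.93 and 1.63, and that of Mirg to Meg3 was 0.291, 0.8 and 0.519, both highest at E13.5.

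In the Peg3 domain on chromosome 7, all 3 members were highest at E10.5, lower at E13.5 and lowest in the adult. Peg3, a paternally expressed zinc finger gene (chr7:6703674-6730463), was at 147, 61.3 and 3.98 fpkm. Usp29, a paternally expressed ubiquitin peptidase gene that starts 125 bp from Peg3 in the other direction, was at 10.9, 4.07 and 0.197 fpkm. Its start lies in the Peg3 promoter window printed above. Zim1, a maternally expressed zinc finger gene of the same domain (chr7:6674365-6696488), was at 18.6, 8.1 and 0.764 fpkm. The E10.5 level was 36.9, 55 and 24.3 times the adult level for Peg3, Usp29 and Zim1. The ratio of Peg3 to Usp29 was 13.53, 15.1 and 20.2 and that of Peg3 to Zim1 was 7.9, 7.57 and 5.2. These ratios thus moved little while the levels of all 3 genes moved by more than an order of magnitude, and Zim1 is read from the other parental copy than Peg3 and Usp29.

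The Snrpn domain, on chromosome 7 as well, was less uniform. Ndn, a paternally expressed gene of the MAGE family (chr7:62348277-62349927), was at 62.4, 80.3 and 2.24 fpkm, with a difference of -4.29 from E10.5 to the adult. Peg12 was at 3.34, 5.02 and 0.297 fpkm and Mkrn3, a RING finger gene, at 0.907, 1.65 and 0.352. Both were highest at E13.5, as Ndn was. Magel2, a relative of Ndn, was under 0.3 fpkm in all libraries. Snrpn, which codes for a protein of the spliceosome and is joined with Snurf in 1 locus (chr7:59981590-60140219), was at 16.1, 13.51 and 19.5 fpkm. It was 1 of the 2 members with the highest value in the adult, with a difference of 0.26. All 5 members are paternally expressed, so levels within a group of the same parental copy went in different directions.

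Peg10 and Sgce on chromosome 6 are both paternally expressed and start 102 bp apart in opposite directions. Peg10, a gene derived from a retrotransposon that is needed in the placenta (chr6:4747306-4760516), was at 23.3, 5.39 and 0.51 fpkm. Sgce, epsilon-sarcoglycan of the muscle membrane (chr6:4674350-4747204), was at 18.5, 29.6 and 6.12 fpkm. Between E10.5 and E13.5 they went in opposite directions, with a difference of -1.92 for Peg10, the lowest of any member, and 0.65 for Sgce. Only 0.334% of annotated loci had a lower difference than Peg10 between these libraries. The ratio of Peg10 to Sgce was 1.26, 0.182 and 0.0834, unlike that of Peg3 to Usp29, which share a start region in the same way. Asb4, a maternally expressed gene of a ubiquitin ligase adaptor in this region, was at 17.4, 20.8 and 2.16 fpkm.

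The other members lie alone or in small domains, and several lie inside or beside genes that did not share their course. Mest, a paternally expressed gene of the hydrolase family (chr6:30733506-30752404), was at 2074, 833 and 3 fpkm. Its E10.5 level was 691 times the adult level, and it ranked number 12 among annotated loci at E10.5 and 9168 in the adult. Copg2, which overlaps Mest by 8694 bp on the other strand, was at 33.5, 37.7 and 18.9 fpkm, and the ratio of Mest to Copg2 was 61.9, 22.1 and 0.159. Nnat, a paternally expressed gene of a small membrane protein (chr2:157560110-157562519), was at 36.7, 94.1 and 0.192 fpkm, the last of these resting on about 3 fragments. Nnat came next to Mirg between the embryonic stages, with a difference of 1.33, and had one of -6.32 from E13.5 to the adult. Blcap, which overlaps it on the other strand, was at 12, 13.57 and 19.85 fpkm. Mest and Nnat were thus low in the adult while Copg2 and Blcap differed by -0.80 and 0.68 between E10.5 and the adult.

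Plagl1, a paternally expressed zinc finger transcription factor gene (chr10:13090671-13131695), was at 150, 41.8 and 0.897 fpkm, with a difference of -6.32 from E10.5 to the adult. Its difference from E10.5 to E13.5, -1.82, was next to that of Peg10 as the lowest of the members. Grb10, an adaptor that dampens insulin and IGF receptor signals and is maternally expressed in most tissues (chr11:11930499-12037420), was at 526, 439 and 34.8 fpkm. Slc38a4, a paternally expressed amino acid transporter gene (chr15:96994823-97055956), was at 116, 104 and 6.55 fpkm. Grb10 and Slc38a4 differed by -0.26 and -0.15 between the embryonic stages and had E10.5 levels of 15.1 and 17.7 times the adult level. Nap1l5, a paternally expressed gene inside Herc3, was at 0.802, 0.632 and 0.102 fpkm, and Herc3 at 11, 19.6 and 17.3.

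Gnas, Impact and Peg13 were the members outside clusters without a lower adult value past the limit, beside Nap1l5. The Gnas locus, whose Gs alpha subunit is read from both copies in most tissues, was at 540, 584 and 298 fpkm. It was the member with the highest adult level, and its transcripts of different parental origin share exons and were not told apart in the locus value. Nespas, antisense to Gnas, was at 2.92, 2.11 and 0.228 fpkm. Impact, a paternally expressed regulator of translation, was at 21.2, 17.2 and 14.7 fpkm, and its difference from E13.5 to the adult changed from -0.22 to 0.34 with median-of-ratios scaling. Peg13, a paternally expressed lncRNA (chr15:72805600-72810324) inside Trappc9, was at 3.43, 2.94 and 11.3 fpkm. Its differences toward the adult, 1.48 from E10.5 and 1.64 from E13.5, were the highest of the members and under the limit of 2. Trappc9 was at 10.8, 9.26 and 9.83 fpkm, so the ratio of Peg13 to Trappc9 was 0.319, 0.318 and 1.15. The 2 genes lie on the same strand and overlap by 4725 bp. Unspliced Trappc9 RNA in total RNA may therefore not have been told apart from Peg13, which was not tested.

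**Figure D4:**
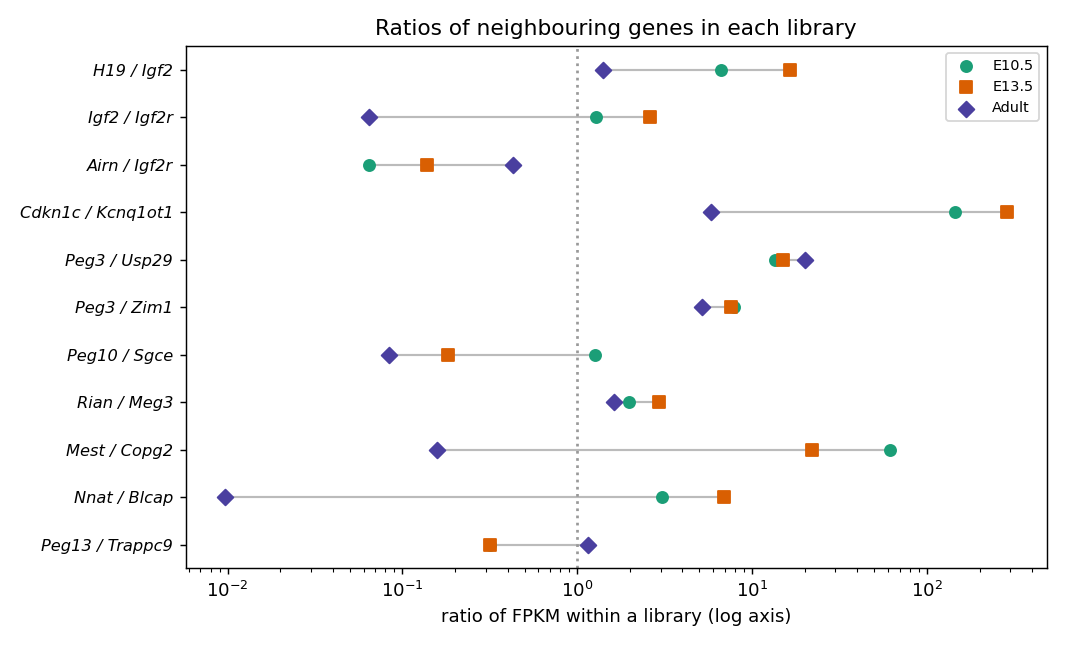
Ratio of the FPKM values of 2 genes within the same library (horizontal log axis) for 11 pairs of neighbouring or functionally linked genes, with 1 point per library and a dotted line at 1. Ratios of Peg3 to Usp29, Peg3 to Zim1 and Rian to Meg3 stay close together over the 3 libraries, and those of Mest to Copg2 and Nnat to Blcap spread most.

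A list of 48 other genes, which neighbour imprinted genes or are themselves imprinted in some tissues, was examined beside the members. Of these, 45 were matched to a locus and 35 were expressed. From E10.5 to the adult, 2 were lower and 1 higher past the limit, against 8.02% and 5.6% of annotated loci, with a median of -0.16. From E13.5 to the adult, 2 were lower and 1 higher, with a median of -0.23. Of the 45, 38 lie within 2 Mb of a member, a distance chosen after seeing the data. Among these 38, 2 were lower and 0 higher past the limit in each comparison with the adult, with medians of -0.15 from E10.5 and -0.17 from E13.5. Inpp5f, Commd1, Zrsr1, Mcts2, Dcn, Sfmbt2 and Gatm lie farther away. The lower ones were Ddc, an enzyme of amine synthesis beside Grb10, at 24, 70 and 1.81 fpkm, Slc38a1, an amino acid transporter gene, at 24.4, 13.52 and 2.77, and Tssc4, at 14, 19.4 and 3.67. The higher one was Dcn, a proteoglycan of fibroblasts that lies far from any member, at 49.5, 75.9 and 351 fpkm. Cd81 and Nap1l4, in the Kcnq1ot1 domain, were among the highest of the list at 299, 428 and 302 fpkm and at 71.9, 98.6 and 52.5 fpkm. The list counts and medians had no limit on low values, while the 8.02% and 5.6% are of loci that reached 1 fpkm. Over 21749 annotated loci without that limit, 4.75% were lower and 3.32% higher from E10.5 to the adult, with a median of 0.00. The list median from E10.5, -0.16, was nearer to this than to the -1.74 of the 35 members, a difference that was not tested.

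Of 8 other genes of insulin-like growth factor signalling, 3 were lower past the limit from E10.5 to the adult and 0 higher, against 8.02% and 5.6% of annotated loci. They code for the RNA-binding proteins that bind Igf2 mRNA. Igf2bp1 was at 49.8, 19.2 and 0.0485 fpkm, Igf2bp2 at 44.8, 23.1 and 2.1, and Igf2bp3 at 56.6, 38.1 and 0.127. All 3 were highest at E10.5 and lowest in the adult, as Igf2r was. The 1 gene of the list with an adult value above the E10.5 value was Insr, the insulin receptor, at 13, 9.41 and 30.3 fpkm, which was named after its values were seen.

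Of 18 genes that set or maintain imprints and related chromatin marks, 6 were lower and 0 higher past the limit from E10.5 to the adult, against 8.02% and 5.6% of annotated loci. Dnmt1, the maintenance DNA methyltransferase, was at 49.2, 45.7 and 5.54 fpkm, and Uhrf1, which brings it to replicated DNA, at 51.4, 42.8 and 1.84. Zfp57, whose binding hexamer is marked in the promoters above, was at 9.68, 8.86 and 0.343 fpkm, and Trim28, its corepressor, at 157, 199 and 18.6. Hells, a chromatin remodeller, was at 29.1, 28 and 1.49 fpkm, and Ezh2, a histone methyltransferase, at 25.7, 20.1 and 4.31. Ehmt2, another histone methyltransferase, passed the limit from E13.5 to the adult, at 23.1, 30.1 and 6.01 fpkm. These genes had like levels in both embryonic libraries and their lowest level in the adult. In the list, 4 genes had adult values above the E10.5 values, with differences between 0.12 and 0.44. They were Zfp445, Arid4a, Dnmt3l and Ctcfl, named after their values were seen. Dnmt3l and Ctcfl had at most 0.0998 and 0.103 fpkm, far under the limit of expression.

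Marker genes of cell types were read in the same libraries. All 8 heart muscle markers were above 0 in the embryonic libraries and 7 of 8 in the adult, with sums of 15529, 22571 and 29176 fpkm. Sums over the 6 epicardial markers were 128, 126 and 19.8 fpkm, those over the 3 primitive erythroid markers 6727, 16305 and 3.05 (the E13.5 sum is mostly Hbb-y, at 15112 fpkm, and the other 2 were lower at E13.5 than at E10.5), and those over the 4 atrial markers 4224, 4330 and 43.4. The sums of these 3 lists were lower in the adult, as most members were. Most of the atrial sums in the embryo came from Myl7, at 2453, 1935 and 0.719 fpkm, and Nppa, at 1744, 2385 and 37.9. Sln was at 21.3, 7.11 and 0.898 fpkm, and Nr2f2 changed little, at 5.85, 4.03 and 3.88. Whether Myl7 and Nppa stand for atrial tissue in the embryonic libraries was not tested. The 8 fibroblast markers summed to 276, 720 and 543 fpkm, and without Dcn, left out after seeing the data, to 227, 644 and 192. The sums were for the 6 endothelial markers 346, 235 and 267 fpkm, for the 6 macrophage markers 7.22, 54.9 and 173, and for the 5 later erythroid markers 57.7, 66.4 and 22.4. From E10.5 to the adult, 2 of the 6 endothelial markers were higher and 4 lower. Npr3 had the largest difference of these, at 86.1, 50.5 and 1.82 fpkm. Markers of tissues outside the heart had sums of 9.73, 15.8 and 5.45 fpkm for 6 neural, 8.55, 22.7 and 1.52 for 5 liver and 51.6, 63.9 and 3.61 for 6 fast skeletal muscle markers. In the last list, 3 of 6 markers reached 1 fpkm. Tnni2 was at 17.5, 50.99 and 1.52 fpkm, Mylpf at 29.87, 8.69 and 1.46 and Tnnt3 at 4.21, 3.47 and 0.563. Myh3, Myh8 and Myog stayed under 1 fpkm in all libraries. The part of these cell types in the levels of the imprinted genes was not tested.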

How the data were processed

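Total RNA of heart ventricle was sequenced with a stranded kit, 1 library for each of 3 stages. Per the submitters' processing notes the authors used TopHat, Bowtie and Cufflinks with mm10, in versions not given in the sources used here. The authors deposited fpkm values per merged locus, together with the exons of the merged transcripts and their RefSeq matches. Of 48626 loci, 9 without transcripts in the annotation were not analysed here. Read counts were not used, and the depth is an approximation from the spacing of the lowest fpkm values.

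A member's locus was the one holding a transcript that matches the RefSeq transcript of that name on its strand. Loci on the other strand that carry a member's name were kept apart. The background was the 20117 mRNA and 1632 lncRNA loci matched to RefSeq, that reached 1 fpkm in any library. Differences used a pseudocount of 1 and a limit of 2 on the log2 scale. The members and lists were chosen with earlier results of these data known. All expressed members were named, and listed genes were named when past the limit between any pair of libraries, when overlapping a member or as 1 of the 3 highest of the list. Alternatives were another pseudocount (0.1), other limits, and median-of-ratios and equal-sum scaling. Counting and scaling were tested on simulated data. Python 3.11.15, numpy 2.4.6, pandas 2.3.3 and matplotlib 3.10.9 were used.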

Additional observations from a re-analysis of the deposited data

Results flagged for a closer look

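Loci on the strand opposite to a member that carry the member's name were left out of all values above, and 11 of them lay above the limit of 3 fragments at the estimated depth. Within Kcnq1, on the strand opposite to Kcnq1ot1, 4 such loci were highest in the adult, at 13.9, 11.3, 7.28 and 9.17 fpkm, against at most 1.74 fpkm at E10.5. Opposite to Gnas lay 4 loci, of which 2 were highest at E10.5, at 2.03 and 2.71 fpkm, 1 was highest at E13.5, at 1.68 fpkm, and 1 was at 1.46 fpkm in both the E13.5 and the adult library. A locus opposite to Nnat was highest in the adult at 3.95 fpkm, one opposite to Nap1l5 in the adult at 1.51 fpkm and one opposite to Dlk1 in the adult at 0.322 fpkm.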

How the results depend on the processing

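The counts, medians and shares over the members were recalculated 102 times under other settings. Of these values, 84 stayed within a limit of 1.5 times, 18 moved further and 0 reversed. For counts and shares this limit applied to the value itself. For medians it applied to the level, as a difference on the log2 scale. A small value that turned sign was counted as moved. The median over expressed members from E10.5 to the adult, -2.54, was -3.17 with a pseudocount of 0.1, -1.74 without a limit on low values, -3.15 with a limit of 2 fpkm, -3.39 without joined loci, -3.39 with a limit of 10 fpkm and -3.15 without members under 1 fpkm in the mean (the cause was not tested). Between E13.5 and the adult it was -3.34 with a pseudocount of 0.1. Medians of maternal and paternal members moved further in 15 of 54 recalculations. Among these, the median of expressed maternal members from E10.5 to E13.5, 0.02, turned sign. It was -0.08 with median-of-ratios scaling, -0.18 with equal sums and -0.26 without joined loci, but 0.05 without a limit on low values and 0.09 with a limit of 2 fpkm. Between the embryonic stages, where 0 members passed the limit, 1 was lower with a pseudocount of 0.1, 1 with median-of-ratios scaling, 2 with equal sums and 8 with a limit of 1, and 2 were higher with a limit of 1. Toward the adult, where 0 were higher, 1 was higher from E13.5 with median-of-ratios scaling, 1 from E13.5 with a limit of 1 and 1 from E10.5 with a limit of 1. The share of the sum was 1.63% at E10.5 and 0.828% at E13.5 without H19, and 0.0462% in the adult without Grb10, Dio3, Impact and Gnas. Of 261 recalculated differences of single members, 10 turned sign under another scaling, none of them past the limit, for Airn, Meg3, Asb4, Gnas and Impact. Leaving out H19, the limit of 10 fpkm and leaving out members under 1 fpkm in the mean over libraries were chosen after seeing the data. Leaving out a replicate was not possible with 1 library per stage. No paired analysis was possible because 1 library was made for each stage. Values near 1 fpkm rest on few fragments.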

Other observations

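In the interval between Snrpn and Peg12 on chromosome 7, on the minus strand, 21 other loci reached 1 fpkm in a library, and 21 of 21 had adult values below their E10.5 values. Of these, 19 are without a match in the reference annotation, with medians of 1.87, 0.459 and 0.113 fpkm in the order E10.5, E13.5 and adult. Over all 12374 such unmatched loci at 1 fpkm or more, 40.5% had adult values below their E10.5 values. These loci lie near each other and are not independent. Most of the 21 reached the limit at E10.5 alone and so had to be lower in the adult. The share of 40.5% is not limited to such loci, so the count of 21 of 21 is no result about this interval. The joined locus of A230057D06Rik in this interval was at 7.7, 4.44 and 0.679 fpkm. In the Dlk1-Dio3 interval on the plus strand, 13 other loci reached 1 fpkm, of which 10 were lower and 2 higher in the adult, with medians of 1.79, 2.27 and 0.509 fpkm. Among them, 7 are unmatched and 6 of these were lower, beside the 40.5% above. Most of the 10 lower ones passed the limit at E10.5 and not in the adult, so they had to be lower. The loci also lie near each other, so this count is no result about the interval either. Other intervals held fewer loci, and their counts went the other way or were mixed. In the Kcnq1ot1 domain, 2 were lower and 6 higher of 8 loci on the plus strand, and 2 lower and 1 higher of 3 on the minus strand. The 6 higher were Kcnq1, the 4 loci within Kcnq1 described above, which lie on its strand, and Cd81, which differed by 0.01. They are thus not 6 separate genes. Over both strands, 2 of 2 were higher in the Igf2-H19 cluster, and 2 lower and 3 higher of 5 in the Peg10 domain. No other locus reached 1 fpkm in the Peg3 and Igf2r-Airn intervals.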
